A study of Mus musculus with 7 samples.

Results

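Motile cilium genes were followed across 7 RNA-seq libraries of mouse amygdala cells. They were the rows of the count table whose gene name equalled 1 of 40 listed genes of the ciliary axoneme and of multiciliated cells, and 39 of the 40 had a row among 35976 genes. The 40th, Cfap65, had no row under that name. The row Ccdc108, its older symbol in the RefSeq gene table, was not counted as a member and stood at 2.82, 0.26, 24.1, 3.36, 0.20 and 52.9 CPM in the samples as ordered below.

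The libraries came from the amygdala of male C57BL/6J mice given adeno-associated virus with Cas9 under the astrocyte promoter GfaABC1D. The guide was sgEgfr, against Egfr, which encodes a growth factor receptor (3 libraries), or sgRosa, a control guide (4 libraries). Mice of both groups had at least 2 weeks of expression, then tube restraint for 7 days, fear conditioning for 1 day and fear extinction for 3 days; their age was not given. Cells were dissociated with papain and enriched with anti-ACSA-2 beads, which bind an astrocyte surface antigen, so no library came from unstressed mice or from unsorted tissue, and the promoter limits Cas9 to cells in which it is active. Each library was made from 5 ng of RNA, and the labels did not say that each came from a separate mouse.

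A motile cilium beats because dynein motors slide the outer microtubule doublets of its axoneme against each other, under the control of radial spokes, nexin links and a central pair of microtubules. In the brain such cilia stand in tufts on the ependymal cells that line the ventricles and move cerebrospinal fluid, and the choroid plexus epithelium also carries them. The transcription factor FOXJ1 switches on axonemal genes in these cells, together with RFX factors, which bind the X-box, a sequence of paired arms. Most other brain cells, astrocytes included, have at most a primary cilium, which shares the transport machinery but lacks the beating apparatus.

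The bases before the start sites of the members were searched for letters that RFX factors are known to bind. Any part of such letters in differences between samples was not tested. RefSeq promoters (GRCm38.p6, from 250 bases before to 50 after a start) were found for 31 of the 39 members, and Foxj1, Rsph1, Rarres2 and Tppp3 were among those without an entry. The 6-base X-box arm GTTGCC, on either strand, lay in the promoters of 12 of 31 members (38.7%), against 14.1% of 27025 genes. It lay within the last 40 bases before the start in 8 members (25.8%), against 2.31% of genes; this window was chosen after the positions were seen. Below are the 100 bases before the start of these 8 members, 5′ to 3′ on the gene's strand, with the arm, as GTTGCC or as its reverse complement GGCAAC, in capitals.
Cfap44: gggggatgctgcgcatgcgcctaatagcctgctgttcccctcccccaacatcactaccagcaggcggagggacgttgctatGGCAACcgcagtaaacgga
Cfap46: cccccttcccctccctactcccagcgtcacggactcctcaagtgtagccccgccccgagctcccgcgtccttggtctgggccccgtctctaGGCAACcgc
Dnah10: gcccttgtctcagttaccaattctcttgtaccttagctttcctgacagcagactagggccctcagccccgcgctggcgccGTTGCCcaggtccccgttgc
Drc1: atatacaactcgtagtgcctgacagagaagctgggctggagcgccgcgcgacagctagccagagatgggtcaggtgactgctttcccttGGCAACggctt
Hydin: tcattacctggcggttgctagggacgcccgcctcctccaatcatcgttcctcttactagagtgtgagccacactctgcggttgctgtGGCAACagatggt
Lrrc23: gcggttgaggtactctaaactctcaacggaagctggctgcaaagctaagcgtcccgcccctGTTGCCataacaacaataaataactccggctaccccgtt
Tekt1: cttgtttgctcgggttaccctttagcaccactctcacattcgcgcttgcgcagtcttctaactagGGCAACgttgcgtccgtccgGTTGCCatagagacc
Tekt2: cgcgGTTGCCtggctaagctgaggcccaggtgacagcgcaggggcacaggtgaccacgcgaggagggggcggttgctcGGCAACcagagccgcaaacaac

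In GRCm38.p6 the 8 windows are Cfap44 chr16:44394699-44394798 (+ strand), Cfap46 chr7:139683816-139683915 (- strand), Dnah10 chr5:124724985-124725084 (+ strand), Drc1 chr5:30281293-30281392 (+ strand), Hydin chr8:110266877-110266976 (+ strand), Lrrc23 chr6:124779728-124779827 (- strand), Tekt1 chr11:72361883-72361982 (- strand) and Tekt2 chr4:126325689-126325788 (- strand). The arm began 9 bases before the start in Cfap46, 11 in Drc1, 13 in Hydin, 19 in Cfap44, 20 in Dnah10, 22 in Tekt2 and 39 in Lrrc23, and Tekt1 had it at both 35 and 15. A strict form of the paired arms, GTTNCCNNGGNAAC, searched on both strands, was in 0 of 31 members and in 0.529% of genes. A looser form, GTTNCNNNNGNAAC, written after the sequences were seen, can overlap the arm. In Hydin and Cfap44 it joins the arm to the letters gttgct before it, which the strict form does not allow. This looser form was in the promoters of 5 of 31 members (Cfap44, Cfap45, Hydin, Spag16 and Tekt4) against 1.19% of genes. The forkhead motif TGTTTAC, on either strand, was in 3 of 31 members (Ak7, Cfap43 and Sntn) and in 4.05% of genes. CCAAT was in 14 of 31 members (45.2%) and 41.1% of genes, and TATAAA in 2 of 31 (6.45%) and 15.7% of genes, both on either strand. These are matches of letters, and binding was not measured.

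Libraries held 5852870 to 22579222 counts, and a count of 0 allows up to 3 counts, 0.131 to 0.212 CPM per sample. The counts of sgRosa 3 and sgRosa 4 agreed to near sampling noise (chi-square per degree of freedom 1.04 over all genes, against 14.8 to 158 for the other 20 pairs). For the 39 members this value was 0.491, with 0 members at a p under 0.05. The pair was therefore summed to 1 sample, sgRosa 3+4, leaving 3 samples per group. Astrocyte markers summed to 5210 to 13209 counts per 1000000 and oligodendrocyte markers to 86341 to 161124, so the libraries held RNA of other cells beside the labelled astrocytes. Unless stated otherwise, levels of single genes are CPM, counts per 1000000 of the TMM-scaled library total, summed levels of lists are counts per 1000000 of the unscaled total, and lists of 6 values are in the order sgRosa 1, sgRosa 2, sgRosa 3+4, sgEgfr 1, sgEgfr 2 and sgEgfr 3. The targeted gene Egfr stood at 13.3, 2.87, 10.6, 10.7, 5.69 and 8.04 CPM, and the groups overlapped (log2 fold change -0.13, SE 0.54; edgeR adjusted p = 0.997), and transcript counts do not show whether a guide cut. In such bulk samples, fewer cells of a type and less RNA per cell cannot be told apart.

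The members separated the samples by library rather than by guide. Of 39 members, 38 were highest in sgEgfr 3 and second highest in sgRosa 3+4, a sample of the other guide; the exception was Tppp3. Of the 38 members that passed the filter on low counts (all but Cfap53), 37 had this order, against 8.62% of 14936 genes tested, and 19.1% of all genes were highest in sgEgfr 3. In 29 members the lowest samples were sgRosa 2 and sgEgfr 2, against 13.8% of genes, and these 29 showed the whole order, against 4.06%. Replicate numbers are shared by sgRosa 2 and sgEgfr 2, and by sgEgfr 3 and a library of sgRosa 3+4. What the number marks is not said in the labels. Summed without Tppp3, the members came to 134, 85.7, 800.5 and 788.5 counts per 1000000 in sgRosa 1 to 4 and 181, 73.3 and 2174 in sgEgfr 1 to 3. The span between the lowest and highest sample was 29.7-fold. In sgRosa 2, 8 members had 0 counts and in sgEgfr 2, 4 did, while in the other samples each of the 39 had counts.

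**Figure D1:**
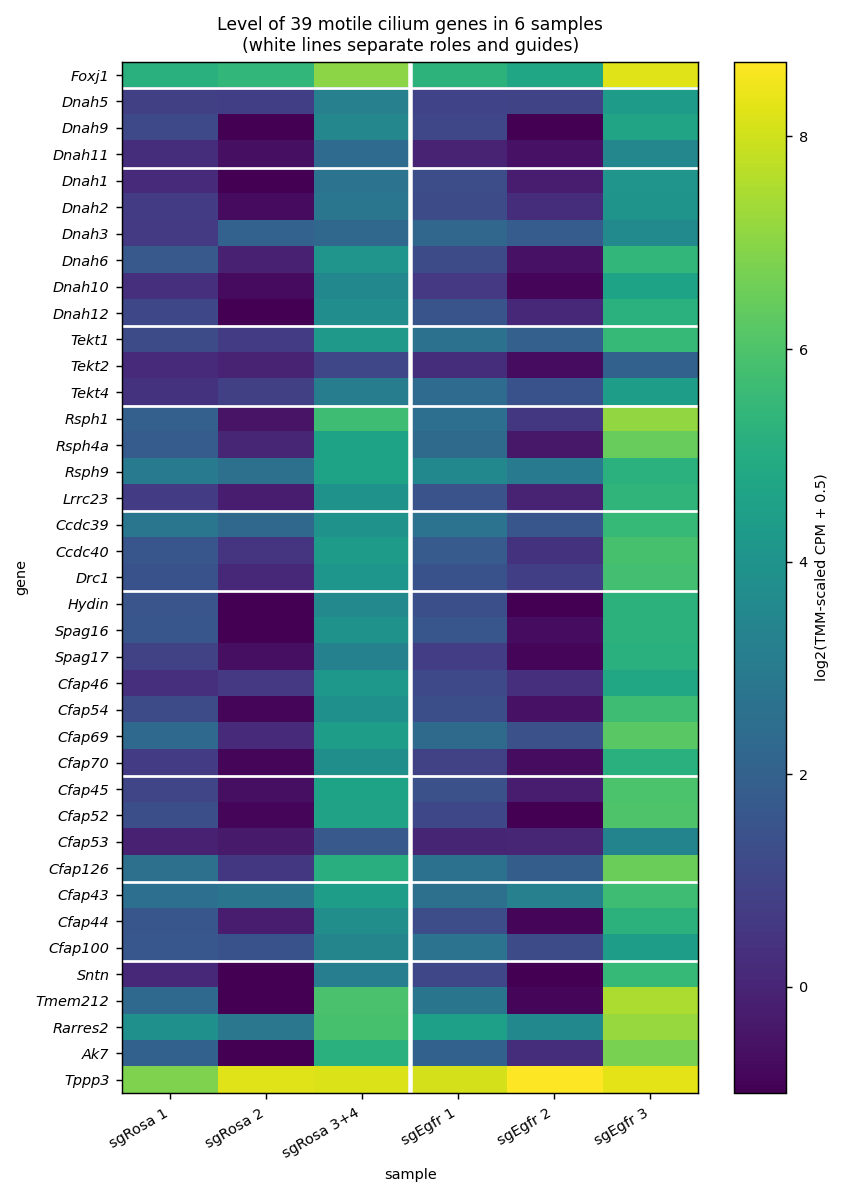
Heat map of the level of the 39 motile cilium genes (rows, ordered by role) in the 6 samples (columns), as log2 of TMM-scaled CPM plus 0.5. sgEgfr 3 and sgRosa 3+4 form bright columns on both sides of the guide line, sgRosa 2 and sgEgfr 2 dark ones, and Tppp3 in the bottom row is bright in all 6 samples.

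Foxj1, the master regulator of motile cilia (chromosome 11, 116330704 to 116335399, GRCm38), stood at 35.4, 42.6, 128, 38.3, 25.7 and 296 CPM. The groups overlapped, the sgRosa mean being 68.8 ± 51.7 CPM and the sgEgfr mean 119.9 ± 152 CPM (SD over 3 samples each). Its log2 fold change was 0.80 (SE 0.93; edgeR adjusted p = 0.997). The level in sgRosa 2 was 14.4% of that in sgEgfr 3 and the level in sgEgfr 2 8.67%, whereas Hydin, Dnah9 and Sntn had 0 counts in both. No exon of another gene in GENCODE M21 overlaps those of Foxj1. Per kilobase of exon, its mean level was 36.0 CPM, below only Tppp3 (154) and Tmem212 (58.4) among the members.

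The outer arm dynein heavy chains, the motors that set beat frequency, were Dnah5, Dnah9 and Dnah11. Dnah9 (chromosome 11, 65831282 to 66168551) was at 1.69, 0, 10.6, 1.59, 0 and 25.1 CPM. It had 0 counts in both sgRosa 2 and sgEgfr 2, so sgEgfr 3 was at least 160-fold and at least 128-fold higher than the limit of 3 counts per sample there. Its log2 fold change between guides was 1.12 (SE 1.91; edgeR adjusted p = 0.997), and the groups overlapped. Dnah5 was at 1.25 and 1.51 CPM in sgRosa 2 and sgEgfr 2 and at 19.4 CPM in sgEgfr 3. Dnah11, a chain of proximal parts of cilia, was at 0.16 and 0.20 CPM in the low samples, 3 counts in each, and at 10.8 CPM in sgEgfr 3.

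The inner arm heavy chains, which shape the waveform of the beat, were Dnah1, Dnah2, Dnah3, Dnah6, Dnah10 and Dnah12. Dnah6 (chromosome 6, 73017606 to 73221651) had the highest mean level of these per kilobase of exon (0.806 CPM). It was at 2.75, 0.42, 16.02, 1.84, 0.20 and 42.8 CPM, with a log2 fold change of 1.23 (SE 1.68; edgeR adjusted p = 0.997). Dnah12 and Dnah1 had 0 counts in sgRosa 2 and were at 36.4 and 16.2 CPM in sgEgfr 3. Dnah10 was at 0.10 and 0.07 CPM in sgRosa 2 and sgEgfr 2, 2 counts and 1 count, and at 24.1 CPM in sgEgfr 3.
Dnah3 (chromosome 7, 119922671 to 120095280) did not share this span. It was at 1.06, 3.61, 4.32, 4.12, 3.01 and 11.6 CPM, so its lowest sample was sgRosa 1, and it had the smallest unadjusted p of all members (log2 fold change 1.06, SE 0.67, unadjusted p = 0.155, edgeR adjusted p = 0.997). Of its exon bases, 10.5% overlap exons of Lyrm1 on the opposite strand, and Lyrm1 was at 8.71 to 15.8 CPM in the 6 samples. Without a stated strand setting, reads of both genes cannot be told apart, and the part of Lyrm1 in this count was not tested.

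Tektins are filament proteins that line the inside of the doublet microtubules. Tekt1 (chromosome 11, 72344722 to 72362442) was at 1.91, 1.10, 18.6, 5.71, 3.40 and 44.8 CPM, with a log2 fold change of 1.32 (SE 1.26; edgeR adjusted p = 0.997). Tekt4 (chromosome 17, 25454615 to 25476602) was at 0.85, 1.31, 8.20, 4.76, 2.23 and 21.0 CPM, with a log2 fold change of 1.44 (SE 1.05; edgeR adjusted p = 0.997). Both were higher in sgEgfr 1 than in sgRosa 1, Tekt4 by 5.62-fold (95% exact interval 3.03 to 11.4) and Tekt1 by 3.00-fold (1.93 to 4.79). These intervals, like all on ratios of counts here, cover counting error only. Over all 39 members the same ratio had a median of 1.20, with 14 intervals above 1 and 0 below. Such differences were common: in a chi-square test for counting error, 57.4% of 14736 genes differed between these libraries at a p under 0.05. Tekt2 was scarce, at 3.54 CPM in sgEgfr 3, and 20.8% of its exon bases overlap Gm12945.

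Radial spokes pass signals from the central pair to the dyneins, and Rsph1, Rsph4a and Rsph9 build the spoke head. Rsph1 (chromosome 17, 31255019 to 31277383) was at 3.39, 0.21, 50.8, 5.26, 0.98 and 139 CPM, with a log2 fold change of 1.42 (SE 1.86; edgeR adjusted p = 0.997). Rsph4a was at 0.52 and 0.26 CPM in sgRosa 2 and sgEgfr 2 and at 85.8 CPM in sgEgfr 3, and Lrrc23, a spoke protein, at 0.37, 0.46 and 40.4 CPM in these samples.
Rsph9 (chromosome 17, 46122035 to 46144216), in the same spoke head, spanned less: 7.27, 5.54, 24.4, 11.03, 7.59 and 36.3 CPM. Its log2 fold change was 0.56 (SE 0.73; edgeR adjusted p = 0.997), and no annotated exon of another gene overlaps it. Its level in sgRosa 2 was 15.3% of that in sgEgfr 3 and its level in sgEgfr 2 20.9%, where Rsph1 was at 0.150% and 0.706%.

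Ccdc39 and Ccdc40 form the molecular ruler that spaces dyneins and spokes along the doublet, and Drc1 is a scaffold of the nexin link. Ccdc40 (chromosome 11, 119228572 to 119265238) was at 2.54, 0.89, 20.2, 2.98, 0.85 and 59.1 CPM, with a log2 fold change of 1.42 (SE 1.56; edgeR adjusted p = 0.997). Ccdc39, its partner in the ruler, was at 4.18 and 2.49 CPM in sgRosa 2 and sgEgfr 2 and at 44.9 CPM in sgEgfr 3. Of the Ccdc39 exon bases, 16.9% overlap Ttc14 on the opposite strand, which was at 86.8 CPM in sgRosa 2, its highest sample, and 31.3 CPM in sgEgfr 3. Drc1 was at 0.57, 1.24 and 56.0 CPM in sgRosa 2, sgEgfr 2 and sgEgfr 3.

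The central pair apparatus, whose projections touch the spokes, gave members with among the widest spans. Cfap69 (chromosome 5, 5579278 to 5664239) was at 4.52, 0.63, 20.3, 4.63, 2.16 and 74.5 CPM, with a log2 fold change of 1.68 (SE 1.46; edgeR adjusted p = 0.997). Hydin had 0 counts in sgRosa 2 and sgEgfr 2 and 847 in sgEgfr 3, at least 236-fold and at least 189-fold above the limit of 3 counts. Spag16 had 0 and 2 counts in these low samples against 858, Spag17 3 and 1 against 803, Cfap54 1 and 3 against 1184, and Cfap70 1 and 2 against 796. Cfap46 had 20 and 12 counts there against 641. Its sgRosa 1 value (0.78 CPM, 11 counts) was its lowest but nearly equal to that in sgEgfr 2 (0.79 CPM).

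Microtubule inner proteins stabilise the doublets from within. Cfap126, also known as Flattop (chromosome 1, 171113918 to 171126967), was at 5.43, 0.99, 33.3, 5.83, 3.14 and 91.2 CPM, with a log2 fold change of 1.34 (SE 1.45; edgeR adjusted p = 0.997). Cfap52 had 1486 counts in sgEgfr 3, 1 in sgRosa 2 and 0 in sgEgfr 2, and Cfap45 had 1412, 3 and 5. Cfap53 was at 0.31 to 2.80 CPM in 5 samples and at 9.97 CPM in sgEgfr 3, and did not pass the filter.

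Cfap43 and Cfap44 tether an inner dynein to the doublet, and Cfap100 modifies inner arms. Cfap43 (chromosome 19, 47736857 to 47919287) was at 5.29, 6.11, 21.2, 5.52, 8.77 and 51.5 CPM, with a log2 fold change of 1.02 (SE 0.90; edgeR adjusted p = 0.997). It was at 11.9% and 17.01% of its sgEgfr 3 level in sgRosa 2 and sgEgfr 2, where its partner Cfap44 had 7 counts and 1 count, 0.972% and 0.174%. From sgRosa 1 to sgRosa 3+4 the ratio was 4.00 for Cfap43 and 5.23 for Cfap44. Cfap100 was at 2.25 and 1.90 CPM in the low samples, 5.90 CPM in sgEgfr 1 and 20.9 CPM in sgEgfr 3.

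The other members were listed as genes of multiciliated cells outside the beating machinery, though Tppp3 (below) did not follow the rest. Tmem212, a membrane protein, had 4103 counts in sgEgfr 3, 0 in sgRosa 2 and 1 in sgEgfr 2, so that sgEgfr 3 was at least 1144-fold above the limit of 3 counts in sgRosa 2. Sntn, a protein of the ciliary tip, had 1016 counts in sgEgfr 3, 133 in sgRosa 3 and 4 together and 0 in both low samples. Ak7, an adenylate kinase of cilia, was at 108 CPM in sgEgfr 3 and had 0 and 11 counts in sgRosa 2 and sgEgfr 2. Rarres2, which encodes the secreted protein chemerin, was at 6.64, 11.1 and 149 CPM in sgRosa 2, sgEgfr 2 and sgEgfr 3. Of its exon bases 33.6% overlap Lrrc61, which was at 16.3 to 27.9 CPM.

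Tppp3, a microtubule-binding protein that is not part of the axoneme, did not follow the other members. It was at 114, 298, 294, 269, 416 and 313 CPM (chromosome 8, 105467493 to 105471526), highest in sgEgfr 2, as were 18.3% of all genes, and lowest in sgRosa 1. In sgRosa 2 the members summed to 397 counts per 1000000 with Tppp3 and 85.7 without it, and in sgEgfr 2 445 and 73.3. The sgRosa mean was 235 ± 105 CPM and the sgEgfr mean 333 ± 75.3 CPM (SD over 3 samples each), a log2 fold change of 0.50 (SE 0.37; edgeR adjusted p = 0.997). The groups overlapped. Summed oligodendrocyte markers were also highest in sgEgfr 2 (161124 per 1000000) and lowest in sgRosa 1 (86341), as were summed microglia markers (456 and 165). The part of either list in the Tppp3 level was not tested.

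No member was called between the guides. Of 38 members tested, 0 passed an edgeR adjusted p under 0.05 (0.0% of all 14936 genes did), and 0 had an unadjusted p under 0.05, against 2.68% of all genes. All 38 had positive log2 fold changes, against 52.9% of all genes, with a median of 1.31 against 0.02 over all genes, and 31 were above 1, against 3.92%. They ranged from 0.50 for Tppp3 to 2.36 for Sntn, with standard errors from 0.37 to 2.09. The groups overlapped for all 38 members, whereas 3.76% of all genes lay wholly higher and 3.85% wholly lower in sgEgfr. The direction rested on sgEgfr 3: without it, 3 of 38 members were positive (Dnah3, Tekt4 and Tppp3), against 49.8% of all genes in that fit, and the median was -1.91. Without sgRosa 2 and sgEgfr 3 it was -2.49, with 2 members positive (49.6% of all genes), 22 at an unadjusted p under 0.05 (9.01% of all genes) and 0 called. Without sgRosa 3 and 4 it was 3.45, again with 0 called. The summed level of all 39 members was 578 ± 449 per 1000000 in sgRosa and 1134 ± 1176 in sgEgfr (SD, n = 3 each), a ratio of 1.96 that became 0.787 without sgEgfr 3 and 3.52 without sgRosa 3 and 4.

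**Figure D2:**
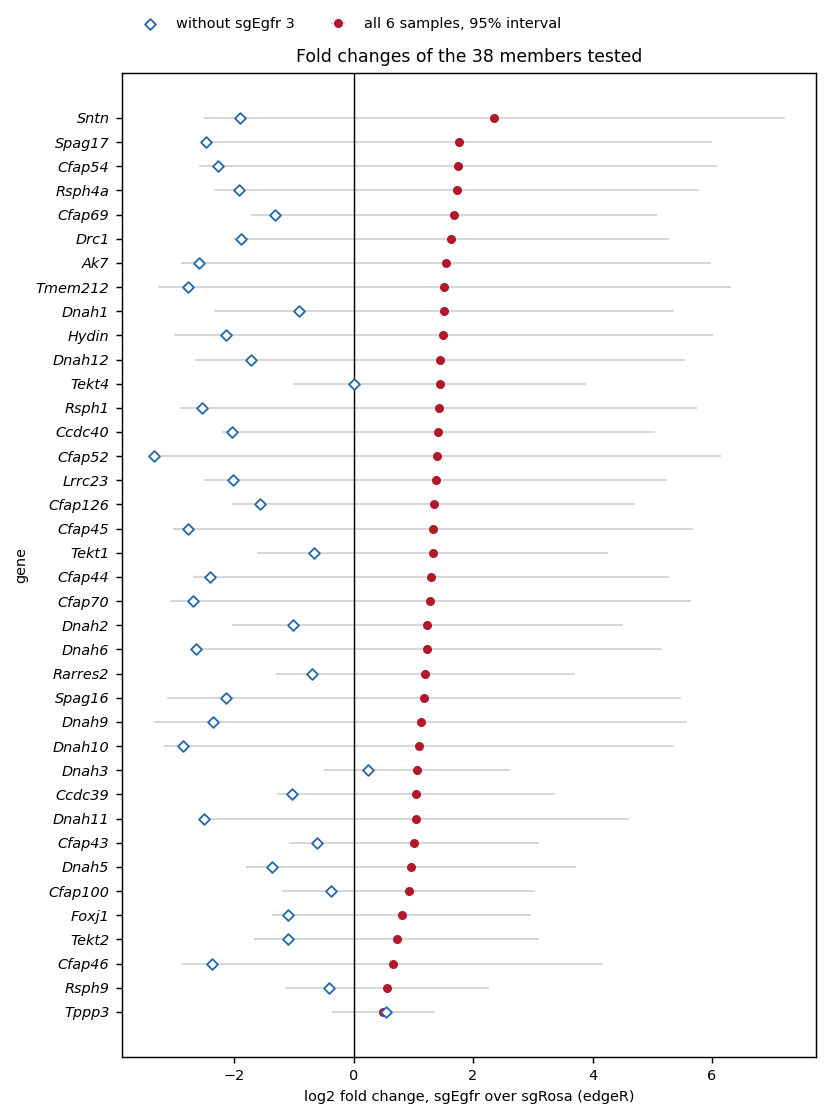
Log2 fold change of sgEgfr over sgRosa for the 38 members tested (filled circles, with 95% intervals from edgeR) and the same value without sgEgfr 3 (open diamonds). All intervals span 0, and 35 of the 38 diamonds lie left of 0.

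The ratio of the highest samples, sgEgfr 3 over sgRosa 3+4, compared members with enough counts to be precise. Its median over the 39 members was 2.67, and 35 of the 38 tested were at least 2-fold higher in sgEgfr 3, against 7.99% of all genes. The 95% exact interval lay above this median for 9 members and below it for 7, and held it for the others. Sntn had the highest ratio at 5.25 (95% exact interval 4.38 to 6.34), followed by Spag17 at 3.81 (3.19 to 4.58), Cfap69 at 3.66 (3.25 to 4.14) and Cfap54 at 3.63 (3.15 to 4.21). Rsph4a, at 3.58 (3.20 to 4.01), lay above its spoke head partner Rsph1, at 2.74 (2.53 to 2.96). Foxj1 was at 2.31 (2.19 to 2.42), Cfap46 at 1.59 (1.38 to 1.83), Rsph9 at 1.49 (1.32 to 1.68) and Tppp3 at 1.07 (1.027 to 1.106). These ratios compare 2 samples, not the guides.

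**Figure D3:**
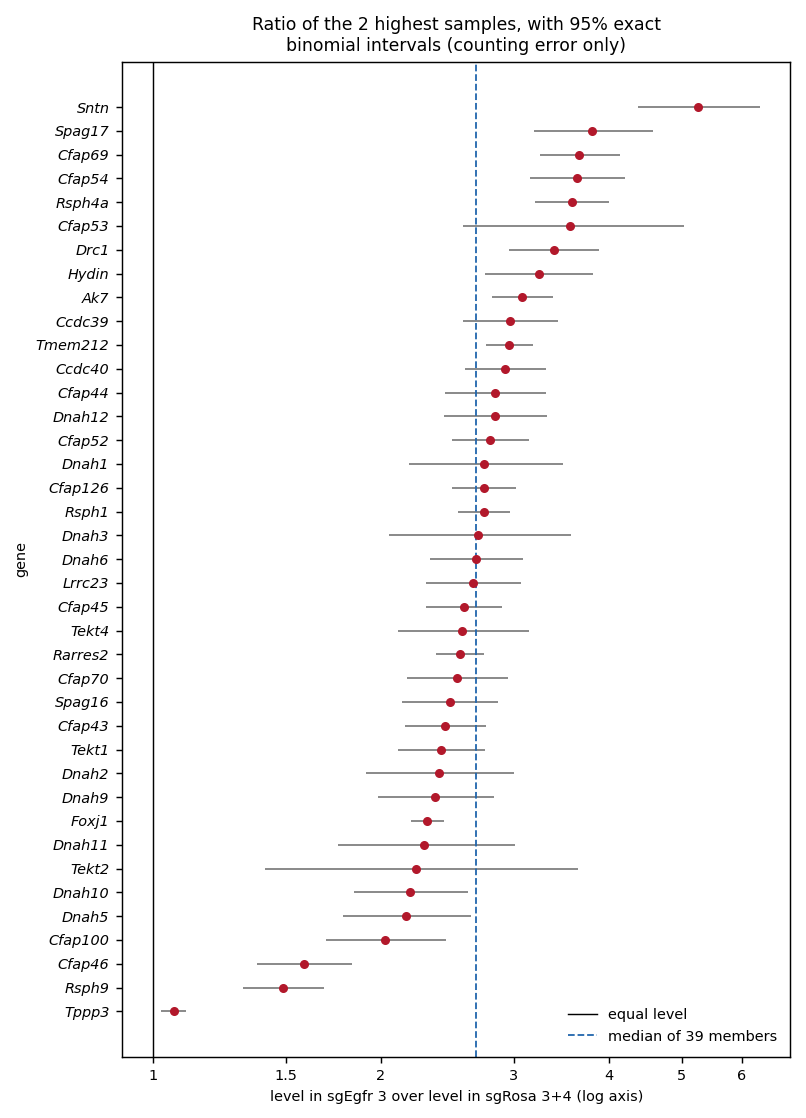
Ratio of the level in sgEgfr 3 to that in sgRosa 3+4 for each member (points, log axis) with 95% exact binomial intervals for counting error. Most members lie near the median of 2.67 (dashed line), Sntn lies at 5.25, and Tppp3, next to the line of equal level, at 1.07.

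The level that remained in sgRosa 2 and sgEgfr 2 also differed between members, in a graded way rather than as separate groups, apart from Tppp3. As the mean of these samples over the level in sgEgfr 3, the median over the 39 members was 1.47%, 17 members were under 1% and 27 under 5%. Those over 10% were Tppp3 (114%), Dnah3 (28.4%), Rsph9 (18.1%), Cfap43 (14.4%) and Foxj1 (11.5%). Next came Cfap100 (9.92%) and Tekt2 (8.49%, from 9 counts and 2 counts). Of these 7, exons of another gene overlap Dnah3, Cfap43 (2.32% of its exon bases), Cfap100 (0.291%) and Tekt2, and none overlap Tppp3, Rsph9 and Foxj1. The following member, Tekt4 (8.40%), lay close below Tekt2 and has no such overlap. Which cells these transcripts came from was not tested.

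**Figure D4:**
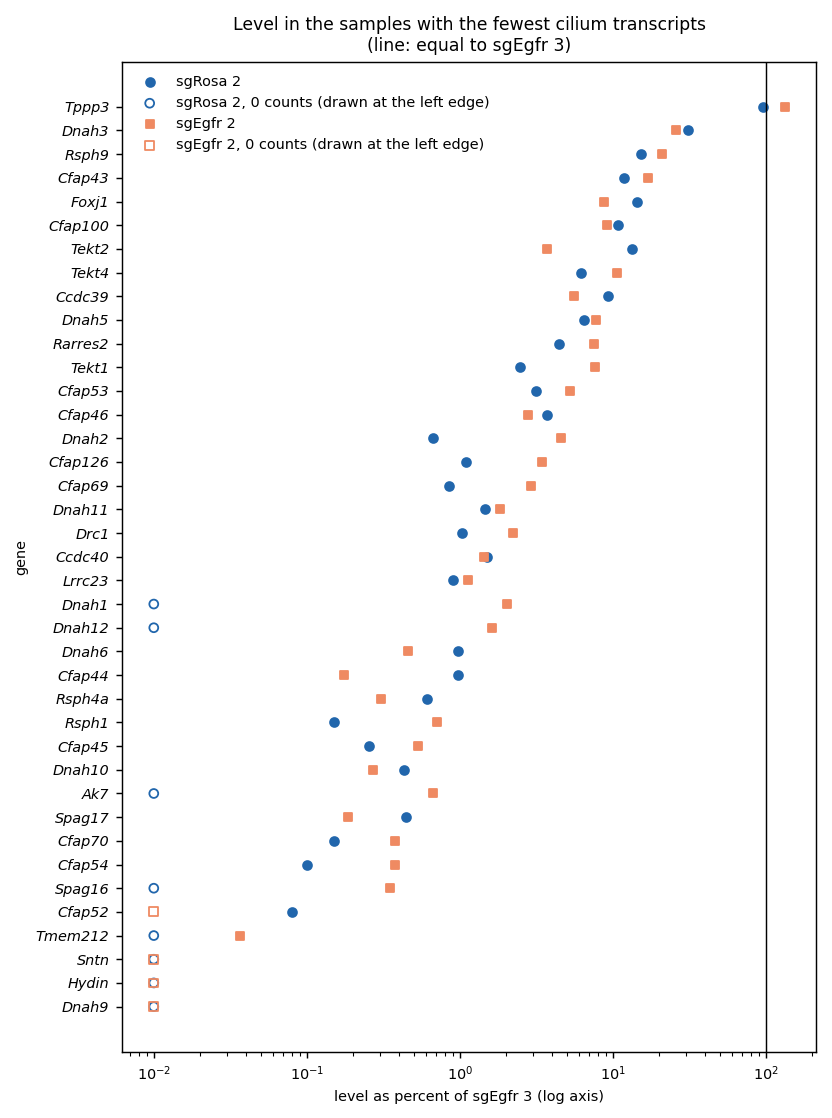
Level of each member in sgRosa 2 (circles) and sgEgfr 2 (squares) as percent of its level in sgEgfr 3, on a log axis; open symbols are 0 counts. Dnah9, Hydin and Sntn had 0 counts in both samples, Dnah3 kept 31.0% and 25.9%, and Tppp3 lay at 95.1% and 133%.

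Other genes of the motile cilium followed the members. Of 59 further genes listed, 57 had a row and 52 passed the filter. Of these 52, 49 were highest in sgEgfr 3, against 19.1% of all genes tested. Positive log2 fold changes were found for 51 (median 1.15), against 52.9%, with 0 called. Lrrc48, the older name of the nexin link gene Drc3, was at 3.95, 0, 30.5, 5.77, 1.51 and 103 CPM, and Cfap161 at 3.11, 0, 27.9, 3.80, 0.98 and 94.2 CPM. The intermediate chain gene Dnaic1 kept more in the low samples, at 6.90 and 10.7 CPM against 60.2 CPM in sgEgfr 3. Cfap20, a doublet protein that primary cilia also hold, was at 26.8 to 38.9 CPM in 5 samples and 66.6 CPM in sgEgfr 3.
Of all 57 rows, 4 were not highest in sgEgfr 3, and all 4 were scarce: Dnah8, Dnah17, Tekt5 and Rsph6a (named after their values were seen). Dnah8 was at 1.05 to 1.71 CPM and Dnah17 at 0.32 to 1.41 CPM over the 6 samples. Tekt5 was at 1.78 to 4.78 CPM, highest in sgEgfr 2. Rsph6a had 1 count in sgRosa 1, 1 in sgRosa 2 and 0 in the other samples.

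Among regulators of multiciliation, Rfx2 followed the members at 2.40, 1.83, 10.9, 4.12, 1.18 and 32.1 CPM, as did Myb at 1.06, 0.16, 10.7, 1.52, 0.13 and 21.6 CPM. Trp73, the gene of p73, had 0 counts in both low samples, 4.07 CPM in sgRosa 3+4 and 11.3 CPM in sgEgfr 3. Rfx3, which many ciliated cells express, spanned less, at 12.2 to 19.8 CPM, with a log2 fold change of -0.10 (SE 0.25; edgeR adjusted p = 0.997). Of the 9 genes listed, 3 passed the filter, 2 with positive and 1 with a negative log2 fold change.

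Genes of the primary cilium and of intraflagellar transport, which astrocytes and neurons also express, varied less. Their summed level was 732 to 1430 per 1000000, a 1.95-fold span, highest in sgEgfr 3 and lowest in sgEgfr 2. Of 32 genes, 28 were highest in sgEgfr 3, against 19.1% of all genes tested. Positive log2 fold changes were found for 28, against 52.9%, with a median of 0.25 and 0 called. In 19 of the 32, sgEgfr 3 was highest and sgRosa 3+4 second highest, as in most members, against 8.62% of all genes. Kif3a, a transport motor, was at 95.1 to 156 CPM and highest in sgEgfr 2, while Arl3 (70.0 to 143 CPM), Ift20 (50.7 to 80.9 CPM) and Ift27 (39.5 to 66.4 CPM) were highest in sgEgfr 3.

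Markers of ependymal cells outside the list tracked the same libraries. The 12 genes summed to 31.3, 8.99, 311 and 301 per 1000000 in sgRosa 1 to 4. In sgEgfr 1 to 3 they summed to 47.8, 9.59 and 963. All 12 were highest in sgEgfr 3, against 19.1% of all genes tested. Their log2 fold changes were positive in 12 of 12, against 52.9%, with a median of 1.51 and 0 called. Ccdc153 was at 3.67, 0.16, 60.0, 7.36, 0.52 and 186 CPM, and Dynlrb2, a dynein light chain, Odf3b and 1700094D03Rik were at 105, 84.5 and 145 CPM in sgEgfr 3.

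Choroid plexus epithelium also carries motile cilia, and its defining marker Ttr, transthyretin, went another way. Ttr was at 46.2, 0.21, 2.10, 4.50, 0.92 and 0.61 CPM, high in sgRosa 1 and near 0 in sgEgfr 3. Folr1 followed the members (0 counts in both low samples and 17.9 CPM in sgEgfr 3), Clic6 was at 29.8 CPM in sgRosa 3+4, 30.5 CPM in sgEgfr 1 and 26.1 CPM in sgEgfr 3, and Otx2 was at 24.05 CPM in sgEgfr 3 and 4.63 to 12.9 CPM elsewhere. Of the 12 markers, 7 passed the filter, 5 with positive log2 fold changes, and 0 were called; Aqp1 was at 0 in sgRosa 1 and in sgRosa 3+4. The 12 markers summed to 68.3, 14.1, 53.4, 47.9, 15.03 and 80.4 per 1000000. This sum was lowest in sgRosa 2 and sgEgfr 2 and highest in sgEgfr 3, as was that of the members without Tppp3. In sgRosa 1, 655 of the 970 counts of the list were Ttr. Of the 7 markers that passed, 3 were highest in sgEgfr 3, and 1 of these, Folr1, was second highest in sgRosa 3+4.

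**Figure D5:**
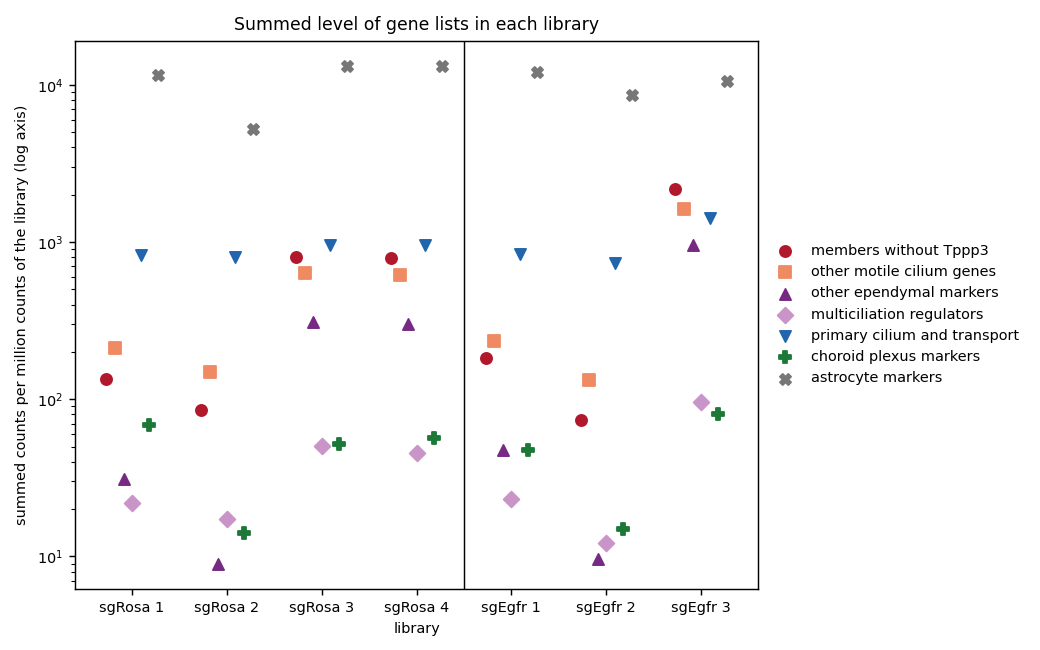
Summed counts per 1000000 counts of the library (log axis) for 7 gene lists in each of the 7 libraries, sgRosa left and sgEgfr right of the line. The members without Tppp3 run from 73.3 in sgEgfr 2 to 2174 in sgEgfr 3, beside other ependymal markers from 8.99 to 963, while the primary cilium list stays between 732 and 1430.

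Markers of the remaining cell types did not span as widely. Astrocyte markers were lowest in sgRosa 2 (5210 per 1000000) and sgEgfr 2 (8552), the samples with the fewest motile cilium transcripts, and highest in sgRosa 3+4 (13209) rather than in sgEgfr 3 (10633). Oligodendrocyte markers were at 94515 in sgEgfr 3, oligodendrocyte precursor markers at 1159 within 1018 to 1795, and neuron markers at 557 within 342 to 583. Microglia markers ran from 165 to 456, endothelial markers from 55.7 to 103, mural cell markers from 561 to 703 and fibroblast and meningeal markers from 76.9 to 267. In sgEgfr 3, 3 of 8 mural cell, 2 of 14 neuron and 2 of 15 astrocyte markers that passed were at their highest, and 0 of the other 5 lists. The part of these cells in the levels of the members was not tested.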

How the data were processed

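RNA-seq was run on 7 libraries of ACSA-2-enriched mouse amygdala cells, 4 sgRosa and 3 sgEgfr. The deposited values are raw read counts per gene made by the authors. The submitters' processing notes name the mm10 build, fastp 0.23.2, FastQC 0.11.9, MultiQC 1.11, STAR 2.7.5c, featureCounts 2.0.1 and edgeR 3.42.4. The annotation, strand setting and handling of multi-mapping reads are not given in the sources used here. Reads from overlapping exons or near-identical paralogs could therefore be counted for either gene.

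sgRosa 3 and 4 were summed because their counts differed by little more than sampling noise, so each group had 3 samples. Counts were scaled by TMM and tested with edgeR's quasi-likelihood test (edgeR 4.0.16, R 4.3.3) over 14936 genes that passed filterByExpr (10 counts), with guide as the only term and Benjamini-Hochberg adjustment over all of them. The test was first run on simulated data with less spread than these data, as a check of the code. That run does not show how the test performs here. Standard errors come from the quasi-likelihood F statistic. The labels do not say that samples of a group came from separate mice, so p-values measure only the spread between these samples, which may be technical. Library totals ran from 5852870 to 22579222 counts, and intervals and limits on counts cover counting error only. DESeq2 1.42.0 and limma 3.58.1 gave alternative tests, beside other scalings, filters, a replicate block and left-out samples. Using sgRosa 3 or 4 alone was chosen after seeing the data. Exon overlaps and coordinates are from GENCODE M21 and promoters from RefSeq (GRCm38.p6).

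The members and gene lists were chosen with earlier results of these data known. Values in every sample were due for Foxj1, the member with the highest mean in each role group, the 3 smallest unadjusted p in each direction, members highest in another sample than most, the 3 smallest spans, and up to 4 leading genes of other lists. Other values were chosen after they were seen. The rule for printed promoters, the full X-box searched in its strict form, found none, so those shown were chosen after the motif search.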

Additional observations from a re-analysis of the deposited data

How the results depend on the processing

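Under all 18 settings tried, 0 genes and 0 members were called, while 236 to 1337 of all genes had an unadjusted p under 0.05 (401 as reported, 500 with DESeq2, 418 with limma-voom). DESeq2 gave no p-value for Foxj1, Rsph1 and Ccdc40, so these could not be called there. The median log2 fold change of the members was 1.31 as reported. It was -2.49 with sgRosa 2 and sgEgfr 3 both left out. Leaving out 1 of the 6 samples gave -1.91, without sgEgfr 3, to 3.45, without sgRosa 3+4, and at most 1.86 without any other sample. With sgRosa 2 and sgEgfr 3 left out, the log2 fold changes were -1.36 for Foxj1, -2.94 for Dnah9, -3.19 for Dnah6, -1.17 for Tekt1, -3.11 for Rsph1, -2.57 for Ccdc40, -1.87 for Cfap69, -2.11 for Cfap126, -0.89 for Cfap43, -0.38 for Tekt4 and -0.77 for Rsph9, with fewer samples.

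Leaving out 1 of the 6 samples gave ranges of -1.11 to 1.63 for Foxj1, -2.36 to 3.44 for Dnah9, -2.64 to 3.27 for Dnah6, -0.66 to 3.59 for Tekt1, -2.53 to 4.82 for Rsph1, -2.04 to 3.64 for Ccdc40, -1.32 to 3.43 for Cfap69, -1.56 to 3.41 for Cfap126, -0.60 to 1.95 for Cfap43 and -0.41 to 1.52 for Rsph9. The low ends came from leaving out sgEgfr 3 and the high ends from leaving out sgRosa 3+4. With sgRosa 3+4 kept, in full or with 1 of its libraries, the highest values were 1.26 for Foxj1, 1.68 for Dnah9, 1.79 for Dnah6, 1.79 for Tekt1, 1.98 for Rsph1, 1.96 for Ccdc40, 2.20 for Cfap69, 1.86 for Cfap126, 1.47 for Cfap43 and 0.91 for Rsph9. Dnah3 (0.25 to 1.42), Tekt4 (0.02 to 3.11) and Tppp3 (0.17 to 0.70) kept their direction when 1 sample was left out.

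The count of members whose groups did not overlap was 0 as reported, against 7.61% of all genes. It was 4 of 38 without sgRosa 3+4 (24.1% of all genes in that fit). Without sgRosa 2 and sgEgfr 3 it was 9 of 38 (40.4% of all genes). Leaving out any other 1 sample gave 0 to 1, against 13.2% to 19.5% of all genes in those fits. With at least 50 counts required in 3 samples, 16 members were tested, 15 of them highest in sgEgfr 3. In the other settings for which this was counted, 37 to 39 were highest in 1 sample. That sample was sgEgfr 3 where it was kept, and sgRosa 3+4, of the other guide, where sgEgfr 3 was left out. The ratio of summed levels was 1.96 as reported, 0.787 without sgEgfr 3, 3.52 without sgRosa 3+4 and at most 2.56 without any other sample.

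Deviations from the group means correlated at -0.11, 0.52 and 0.55 for samples with the same replicate number. For sgRosa 1 the highest value was with sgEgfr 3 (0.08). The deviations within a group sum to 0, so the values for different numbers depend on each other. They cannot decide whether the numbers mark pairs. With the replicate block the median was 0.90, with 0 members called and 21 of 38 at an unadjusted p under 0.05, against 4.72% of all genes in that fit. Depth limited members with 10 counts or fewer, which were 23 in sgRosa 2 and 20 in sgEgfr 2.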
